A study of Rattus norvegicus with 6 samples.

Results

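The peptides that GABAergic interneurons release in the rat hippocampus, and some of the receptors that read them, were compared between Syracuse High Avoidance (SHA) and Syracuse Low Avoidance (SLA) rats. The set was defined as 10 genes: the peptides neuropeptide Y (Npy), somatostatin (Sst), cholecystokinin (Cck), vasoactive intestinal peptide (Vip) and cortistatin (Cort), and the receptors Npy1r, Npy5r, Sstr2, Sstr5 and Cckbr. Every probe set of the array whose annotation names exactly 1 gene, that gene being in the set, was taken. This gave 11 probe sets for 9 genes, of 7006 probe sets that name 1 gene and 4736 genes in all. Cort had 0 probe sets of its own, since the 2 that name it also name other genes, and it was not analysed here.

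SHA and SLA are rat lines named for good and poor learning of two-way active avoidance, a task in which a rat learns to cross a box at a signal and so avoids a shock. Each line was represented by 3 pools of whole hippocampus, with 3 rats in a pool, and each pool was read on 1 one-colour array. All rats of both lines had been tested and were killed 2 weeks later. Rats without testing were not measured here, so a difference between the lines before testing and an effect of testing cannot be told apart. No age or sex is given in the sources used here. The pool is the replicate, with n = 3 per line throughout. Values are the linear intensities deposited by the authors, and each difference is the SHA minus the SLA mean on the log2 scale, ± its standard error in limma's fit over 6555 probe sets.

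Interneurons of the hippocampus release GABA, and their peptides are released from dense-core vesicles as slower signals. Npy and Sst mark interneurons that contact the dendrites of principal cells. Cck marks a class of basket cells, and Vip marks cells many of which contact other interneurons. Cck is also made by some principal cells. Npy1r, Npy5r, Sstr2 and Sstr5 are receptors coupled to inhibitory G proteins, whereas Cckbr is coupled mainly to Gq. In whole tissue, fewer cells of a type and less RNA per cell cannot be told apart.

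Genes for neuropeptides are classic targets of cAMP signalling, and the element through which cAMP acts was first studied in the somatostatin promoter. Promoter windows from RefSeq on GRCr8, 250 bases before to 50 after the annotated start, were listed for 9 of the 10 genes, all but Cck. The full element TGACGTCA, which reads the same on both strands, occurred in the windows of Sst and Sstr2 and in 1.83% of 33469 windows of that length. Its first part TGACG, on either strand and with those inside the full element counted, occurred in 5 of the 9 windows (Sst, Sstr2, Vip, Npy1r and Cort) and in 21.2% of all windows. The GC box GGGCGG, on either strand, occurred in those of Npy, Sstr2, Sstr5 and Cckbr and in 33.1% of all. TATAAA, on either strand, occurred in that of Vip and in 14.2% of all.

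Below are stretches of the promoters of Sst and Sstr2, which hold the full element, and of Vip and Sstr5, 2 of the 3 genes whose SHA pools lay above every SLA pool. Capitals mark the full element in Sst and Sstr2, the short element in Vip and the GC boxes of either strand in Sstr5. All are written 5′ to 3′ on the gene's strand.
Sst, chr11:90461496-90461557, plus strand: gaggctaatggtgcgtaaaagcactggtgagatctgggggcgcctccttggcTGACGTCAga
Sstr2, chr10:99163253-99163322, plus strand: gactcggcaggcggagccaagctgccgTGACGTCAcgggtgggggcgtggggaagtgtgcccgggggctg
Vip, chr1:44470360-44470419, plus strand: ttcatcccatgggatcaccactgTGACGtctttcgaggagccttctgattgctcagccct
Sstr5, chr10:15017470-15017539, minus strand: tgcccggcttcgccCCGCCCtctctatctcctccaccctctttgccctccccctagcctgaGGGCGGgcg
Counted from the annotated start, the full element began at base 3 in Sst and at -73 in Sstr2, and the short element of Vip at -97. Where transcription starts was not measured here, so base 3 does not place the Sst element inside its transcript. The matches are of letters, and binding was not measured.

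Of the 11 probe sets, 10 were bright enough on average to be tested and the probe set of Npy5r was not. None of the 10 had an adjusted p under 0.05 in limma's test, where 0% of the 6555 tested did. By limma's unadjusted p under 0.05 the count was 0 of the 10, against 1.5% of all, with 0.366% higher and 1.13% lower in SHA. One of the 10, Sstr5, is dim in SLA and entered the test only through its brighter SHA pools, so its direction was fixed by the filter on low values and its p and separation are no support. Among the other 9, an unadjusted p under 0.05 in limma was reached in some setting by Cck alone, in 3 of its 18 fits: with array weights, with no filter and with the pool number as a block, where 5.4%, 2.32% and 5.26% of all probe sets reached it. Of the 10, 7 were higher and 3 lower in SHA, with a median difference of 0.18, while 48.1% of all probe sets were higher and the median was -0.01. Sstr5, with its direction fixed by the filter, is 1 of those 7 and enters the median of 0.18. All 3 SHA pools lay above all 3 SLA pools for Cck and Vip, and for Sstr5 with the reserve just given, against 2.01% of all probe sets. The reverse held for 0 of the 10, against 3.65%, so that 5.66% of all probe sets were separated in either direction. Over all separated probe sets 132 were higher and 239 lower in SHA; with quantile normalization these were 187 and 206, and with median centring 149 and 173. Quantile normalization kept Cck and Vip separated, against 2.85% of all with SHA higher, and median centring kept Vip, against 2.27%. Sstr5 stayed separated under both, with the same reserve. The genes were chosen with earlier results of these data known, so these shares describe the set.

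**Figure D1:**
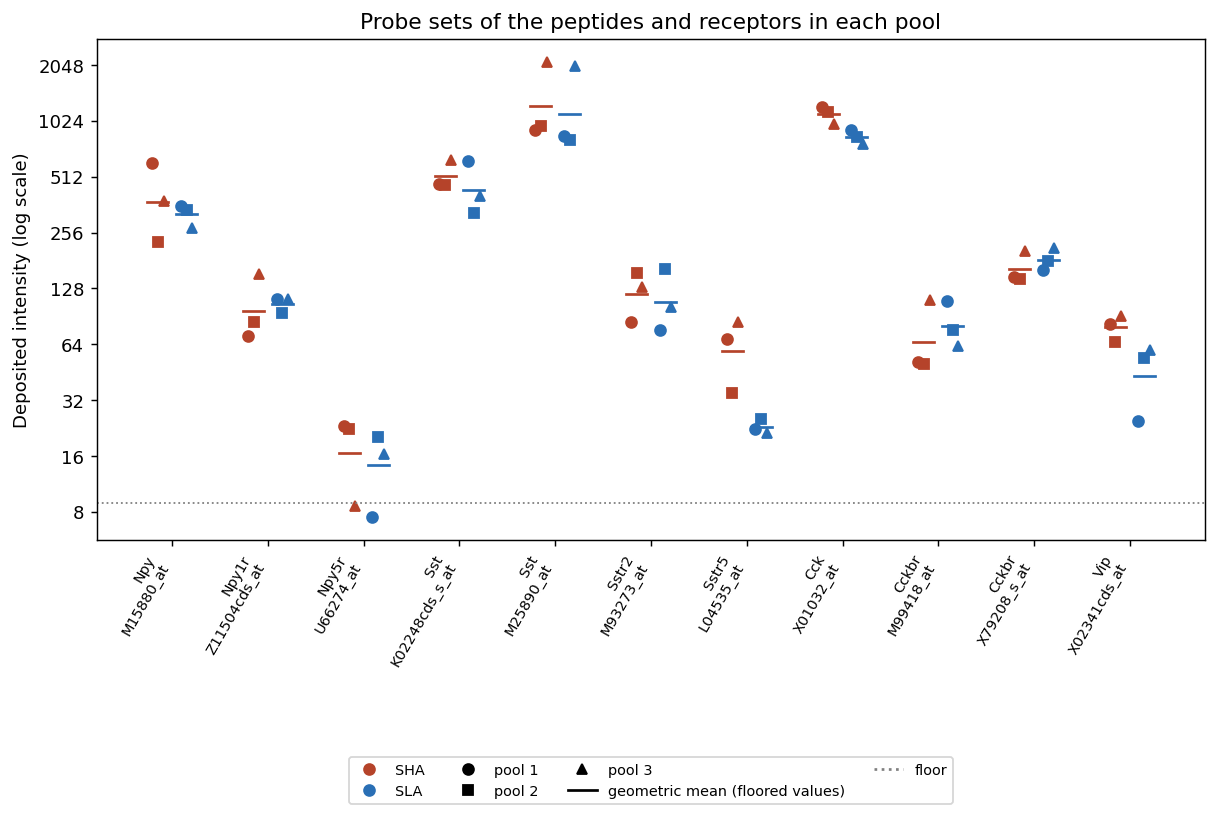
Deposited intensity (log axis) of the 11 probe sets in each of the 6 pools, SHA in red and SLA in blue, with marker shapes for pool numbers 1 to 3, short lines for geometric means of floored values and a dotted line at the floor of 8.9. The SHA and SLA points are apart for Sstr5, Cck and Vip and overlap for the other 8 probe sets, and both pools numbered 3 stand high for the Sst probe set M25890_at.

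Cck, the peptide of one class of basket cells, gave the steadiest difference among the 3 separated genes. Its probe set X01032_at read 1217.9, 1139.8 and 986.7 in SHA pools 1, 2 and 3 and 910.4, 834.6 and 770.4 in SLA pools 1, 2 and 3. The lowest SHA pool was above the highest SLA pool, and in both lines pool 1 was highest and pool 3 lowest. The means were 1115 ± 118 (SD, n = 3) in SHA and 838 ± 70.1 (SD, n = 3) in SLA. The difference was 0.41 ± 0.22, or 1.33-fold with a 95% interval of 0.949 to 1.86, and did not pass limma's test (unadjusted p = 0.089, adjusted p = 1.00). Between pools sharing a number it was 0.42, 0.45 and 0.36, a narrow range. With the pool number as a block the standard error was 0.13 and limma's unadjusted p was 0.016, with an adjusted p of 0.83. The labels do not say what pools of 1 number share, so the block is only an alternative.

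The receptor through which brain Cck mainly acts was read by 2 probe sets of Cckbr, and the mean of both was lower in SHA. X79208_s_at read 148.4, 144.1 and 204.7 in SHA pools 1 to 3 and 161.1, 180.2 and 211.8 in SLA pools 1 to 3. In both lines pool 3 was highest, and the lines overlapped, with a difference of -0.16 ± 0.32. M99418_at read 51.1, 50 and 111.3 in SHA pools 1 to 3 and 109.4, 76.2 and 62.6 in SLA, a difference of -0.29 ± 0.51. Here SHA pool 3 and SLA pool 1 were the high pools, and the difference within pool numbers went from -1.10 for number 1 to 0.83 for number 3. It was -0.67 without SHA pool 3. The 95% interval of the Cckbr difference on X79208_s_at, 0.545 to 1.46-fold, holds the 1.33-fold seen for Cck.

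Vip, the peptide of interneurons that largely target other interneurons, read 82.8, 66.2 and 90.7 in SHA pools 1 to 3 and 24.6, 53.8 and 59.9 in SLA pools 1 to 3. All SHA pools were above all SLA pools, by a small margin between 66.2 and 59.9, and SLA pool 1 was well below the rest. Means were 79.9 ± 12.5 (SD, n = 3) and 46.1 ± 18.9 (SD, n = 3). The difference of 0.88 ± 0.53, 1.84-fold with a 95% interval of 0.802 to 4.24, did not pass limma's test (unadjusted p = 0.13, adjusted p = 1.00). Within the pool numbers it was 1.75, 0.30 and 0.60, and without SLA pool 1 it was 0.48. SLA pool 1 was also the lowest of the 6 pools for 6 of 11 interneuron markers outside the set and the highest for 1, Pvalb.

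Sst, the peptide of dendrite-targeting interneurons, was read by 2 probe sets that ordered the pools differently. K02248cds_s_at read 470.1, 463.6 and 632.0 in SHA pools 1 to 3 and 625.0, 327.2 and 400.7 in SLA pools 1 to 3. The ranges overlapped because SLA pool 1 stood near the highest SHA pool. The difference was 0.25 ± 0.30, and 0.51 without SLA pool 1. M25890_at read 914.5, 960.1 and 2125.1 in SHA and 846.8, 809.1 and 2014.6 in SLA. On this probe set both pools numbered 3 were more than 2 times as bright as the other 4, whatever the line. Within each number SHA was slightly higher, by 0.11, 0.25 and 0.08, while the difference over the lines was 0.14 ± 0.43 and changed sign when SHA pool 3, SLA pool 1 or SLA pool 2 was left out. K02248cds_s_at did not show the separation of the pools numbered 3, so the Sst level of a pool depends on the probe set read.

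Sstr5, a somatostatin receptor, had pools that were apart between the lines. On L04535_at it read 68.0, 35.0 and 84.5 in SHA pools 1 to 3 and 22.3, 25.2 and 21.4 in SLA pools 1 to 3. The SLA pools lay close together at 23.0 ± 1.99 (SD, n = 3), and the SHA pools were all higher and more spread, at 62.5 ± 25.2 (SD, n = 3). The difference, 1.35 ± 0.61, or 2.56-fold with a 95% interval of 0.996 to 6.57, was the largest of the 10 and did not pass limma's test (unadjusted p = 0.051, adjusted p = 1.00). It was 1.61, 0.47 and 1.98 within the pool numbers and 1.73 without SHA pool 2. The probe set is dim: the SLA mean lay under the limit of 26.0 used for the mean over all pools, so it was tested only through its SHA values, and a probe set kept in that way had to differ. Its p therefore supports nothing, and the values are a description. On the scale of log2(value + 16) the difference was 0.96.

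Sstr2, a main somatostatin receptor of the hippocampus, read 84.0, 155.7 and 129.7 in SHA pools 1 to 3 and 76.3, 163.2 and 101.3 in SLA pools 1 to 3. In both lines pool 1 was lowest and pool 2 highest, and the lines covered almost the same range. The difference was 0.14 ± 0.44, with a 95% interval of 0.558 to 2.18-fold. Leaving out SHA pool 2 gave -0.05, and leaving out SLA pool 1 gave -0.11.

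**Figure D2:**
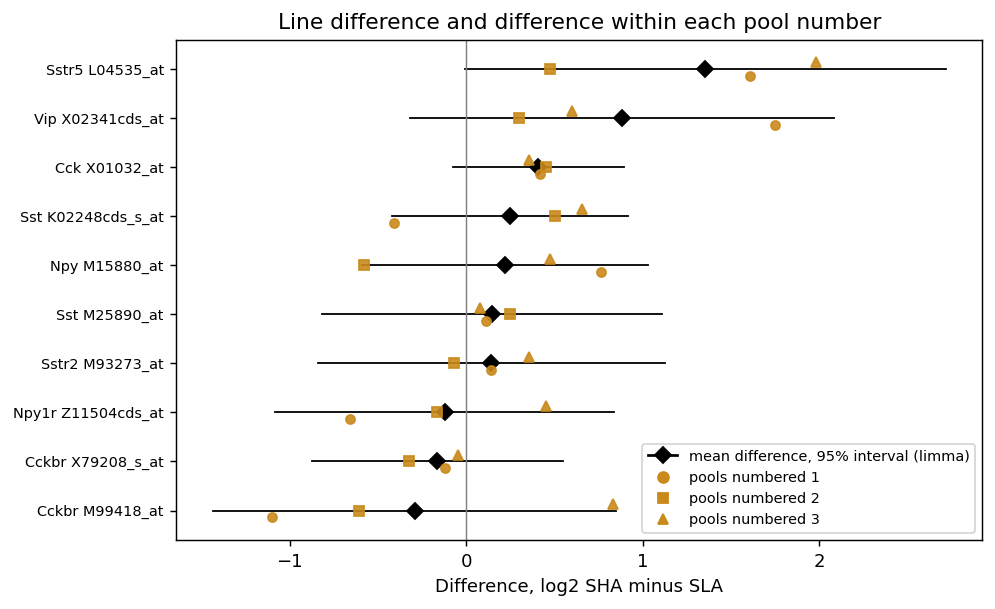
Difference between the lines (log2 SHA minus SLA, black diamonds, with limma's 95% interval) for the 10 tested probe sets, and the difference between the 2 pools sharing each number (orange circles, squares and triangles for numbers 1, 2 and 3). Every interval includes 0, and the points within numbers are tightest for Cck (0.36 to 0.45) and wide for Cckbr on M99418_at (-1.10 to 0.83).

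Npy, found in several interneuron classes and in the dentate hilus, read 606.7, 227.7 and 378.4 in SHA pools 1 to 3 and 357.8, 340.6 and 272.4 in SLA pools 1 to 3. The SHA pools held both the highest and the lowest value, so the SLA pools lay wholly inside their range. Means were 404 ± 191 (SD, n = 3) and 324 ± 45.2 (SD, n = 3), and the difference was 0.22 ± 0.36 (limma's unadjusted p = 0.56). The sign rested on SHA pool 1: the difference was -0.13 without it and 0.58 without SHA pool 2. Within the pool numbers it was 0.76, -0.58 and 0.47.

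Npy1r and Npy5r, both receptors of Npy, lie next to each other on chromosome 16 with 0 annotated genes between them in the RefSeq table of GRCr8. Npy1r read 70.8, 84.2 and 153.5 in SHA pools 1 to 3 and 111.6, 94.3 and 112.1 in SLA pools 1 to 3. The SHA pools again lay on both sides of the SLA pools, and the difference was -0.12 ± 0.43, 0.11 without SHA pool 1 and -0.45 without SHA pool 3. Npy5r read 23.3, 22.3 and 8.6 in SHA and 7.5, 20.2 and 16.5 in SLA. Its values overlapped and 2 pools were under the floor of 8.9, so no order is read from it and no test was made.

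Most other genes of these peptide families had lower means in SHA. Of 16 related ligands and receptors, 13 had a probe set and 11 were tested, 3 higher and 8 lower in SHA, with a median difference of -0.09. Over all 3812 genes tested, read from their brightest probe set, 45.8% were higher and the median was -0.03. None of the 11 passed, and none had an unadjusted p under 0.05 in limma. SLA pool 1 was the highest pool for 5 of the 11, all among the lower ones: Vipr1, Pyy, Sctr, Sstr1 and Npy4r. It was the lowest for 1, Adcyap1. Outside pool number 1, Sstr1 was higher in SHA by 0.63 and 0.41, and Sctr by 0.23 and 0.54. Vipr1, Pyy and Npy4r had differences of both signs there. Higher on average were Sstr3, Ppy and Sct. Sstr3, a further somatostatin receptor, read 87.5, 64.2 and 87.9 in SHA pools 1 to 3 and 43.7, 61.1 and 26.2 in SLA pools 1 to 3, a difference of 0.94 ± 0.52. It was the only 1 of the 11 whose SHA pools all lay above the SLA pools, as did those of 70 of all 3812 genes tested. The reverse held for 0 of the 11, against 155 of all genes tested. The somatostatin receptors Sstr1 and Sstr4 differed by -0.37 ± 0.78 and -0.09 ± 0.36.

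Vipr1, a receptor of Vip, read 58.4, 69.1 and 88.9 in SHA pools 1 to 3 and 175.4, 81.5 and 85.6 in SLA pools 1 to 3. SLA pool 1, which had the lowest Vip, had the highest Vipr1, and the difference was -0.59 ± 0.47. The other Vip receptor, Vipr2, and the Cck relative gastrin, Gast, were too dim to test. The peptide Adcyap1 (PACAP) and its receptor Adcyap1r1 differed by -0.03 ± 0.34 and -0.02 ± 0.35. The Npy relative Pyy and the receptor Npy4r differed by -0.28 ± 0.59 and -0.48 ± 0.80, Ppy by 0.96 ± 0.64, Sct by 0.35 ± 0.68 and its receptor Sctr by -0.23 ± 0.77. After quantile normalization and after median centring this list had 5 higher and 6 lower, so its lean toward lower values depends on the scaling. The lean also rests in part on SLA pool 1.

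Of 41 other neuropeptide genes and receptors, 35 had a probe set and 24 were tested, 8 higher and 16 lower, with a median of -0.14, and none passed. Oxt, oxytocin, is 1 of the 16, but it was tested only through its SLA pools, so its direction was fixed by the filter on low values. SLA pool 1 was the highest of the 6 pools for 10 of the 24, all among the lower ones, and the lowest for 2. Tac3, a tachykinin peptide named after its values were seen, was the 1 gene of the 24 with separated pools. Of all 3812 genes tested, 70 were separated with SHA higher and 155 with SHA lower. It read 128.5, 98.1 and 115.5 in SHA pools 1 to 3 and 85, 65.2 and 76.7 in SLA pools 1 to 3, a difference of 0.59 ± 0.39 that was 0.60, 0.59 and 0.59 within the pool numbers. The smallest p on each side belonged to Crh, corticotropin-releasing hormone (1.32 ± 0.79), and Npr2, a natriuretic peptide receptor (-0.62 ± 0.47). Crh was dim in SLA and was tested only through its SHA pools, so its difference is a description. Genes that process and pack peptide precursors leaned the other way: of 15 tested, 12 were higher and 3 lower, with a median of 0.09, and none passed or had separated pools. With quantile normalization 11 were higher, and with median centring 12. Scg5, the chaperone of the convertase Pcsk2, read 2079.5, 1879.0 and 2315.7 in SHA and 1240.0, 1558.9 and 2033.1 in SLA (0.40 ± 0.25), and Pcsk5, a convertase, differed by -0.69 ± 0.60. SLA pool 1 was the lowest of the 6 pools for 7 of the 15 and the highest for 1, Ptprn2. Scg3 and Chgb, granule proteins named after their values were seen, read 646.8 and 476.2 there, against 1427.2 to 1932.5 and 948.7 to 1482.2 in the other 5 pools.

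By their means, interneuron markers outside the set leaned in the same direction as its peptides. Of 16, 12 had a probe set and 11 were tested, 8 higher and 3 lower in SHA, with a median of 0.13, and the same split of 8 to 3 after quantile normalization or median centring. None passed, had an unadjusted p under 0.05 or had separated pools. Calb1, a calcium-binding protein also abundant in granule cells, read 507.9, 648.5 and 604.4 in SHA and 169.7, 512.4 and 506.9 in SLA (0.73 ± 0.41). Gad1, a GABA-synthesising enzyme, read 472.2, 796.7 and 769.9 in SHA and 217.1, 640.3 and 637.7 in SLA (0.57 ± 0.43), and was named after its values were seen. For both genes pool 1 was the lowest pool of each line and SLA pool 1 the lowest of all. SLA pool 1 was the lowest pool for 6 of the 11, all among the higher ones: Slc32a1, Gad1, Calb1, Calb2, Kcnc2 and Tac1. Within every pool number Slc32a1, Gad1 and Calb1 were higher in SHA. Between the pools numbered 2, Calb2, Kcnc2 and Tac1 were lower in SHA, by -0.11, -0.10 and -0.11. The lean of the list thus rests in part on SLA pool 1. Slc32a1, the vesicular GABA transporter, differed by 0.13 ± 0.24, Gad2 by 0.08 ± 0.38 and Pvalb by -0.15 ± 0.32. Reln had the smallest p among the lower markers, at -0.26 ± 0.36. The summed intensity of the 12 markers ran from 2625.6 to 3671.6 in the SHA pools and from 2073.7 to 3423.8 in the SLA pools, so it overlapped.

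Each array was also centred on the mean log2 value of the 11 tested interneuron markers, a scaling added once the values were known, which moved the median difference of all probe sets to -0.17. On this scale Cck differed by 0.26 ± 0.32, Vip by 0.73 ± 0.54 and Sstr5 by 1.20 ± 0.67, and 0 of the 10 probe sets had separated pools in either direction. Of all probe sets, 74 (1.13%) were then separated with SHA higher and 320 (4.88%) with SHA lower. The set, Sstr5 included, then had 5 higher and 5 lower, and the precursor-processing genes 7 higher and 8 lower. The standard error of Cck was larger on this scale than on the deposited one, where it was 0.22.

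**Figure D3:**
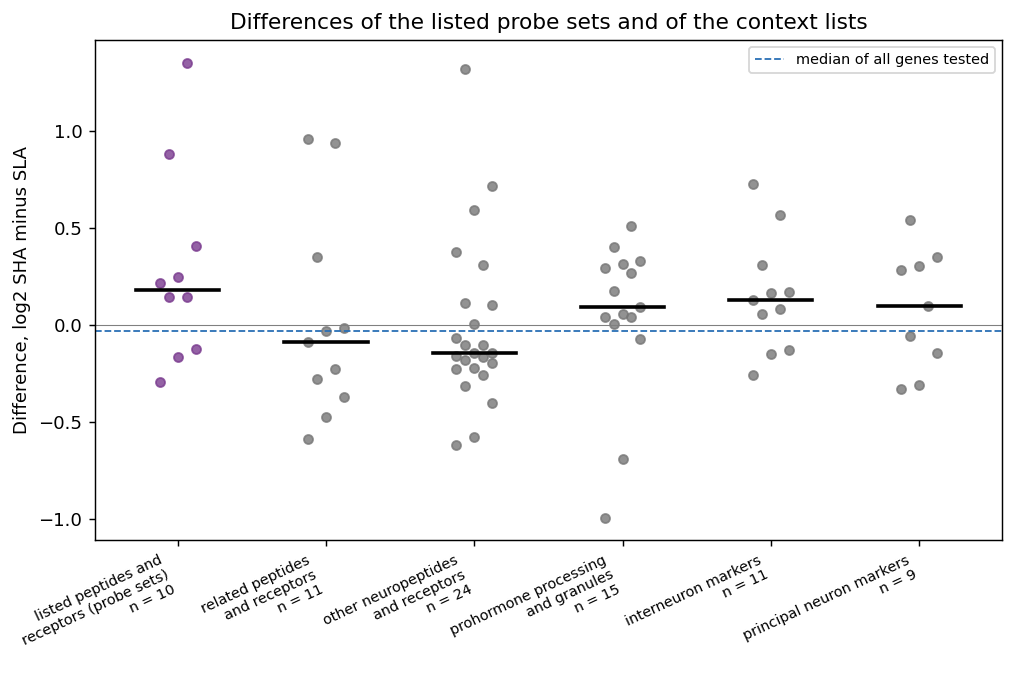
Difference between the lines (log2 SHA minus SLA) for the 10 tested probe sets of the listed peptides and receptors and for the tested genes of 5 context lists, one point each, with black bars at list medians and a dashed line at the median of all genes tested (-0.03). The medians are 0.18 for the listed probe sets, Sstr5 included, -0.09 and -0.14 for the related and the other neuropeptides, 0.09 for prohormone processing and 0.13 for interneuron markers.

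Markers of other cells were read on the same arrays. Principal neuron markers, with 9 of 16 tested, had 5 higher and 4 lower (median 0.10), and their summed intensity ran from 9096.7 to 11132.4 in SHA and 8371.6 to 10360.8 in SLA. Nrgn, neurogranin, read between 4273.0 and 7730.0 in every pool, whereas the probe set of Slc17a7, the vesicular glutamate transporter of these neurons, was near or under the floor in several pools (3.5 to 66.6). The smallest p of this list belonged to Gria2 (0.54 ± 0.27) and, on the lower side, Grik4 (-0.31 ± 0.30). Of 9 astrocyte markers, 8 had a probe set and were tested, 6 of them higher (median 0.15, sums 22984.1 to 26125 in SHA and 20512.7 to 24375.3 in SLA). Gfap, an intermediate filament of astrocytes, had no probe set annotated to it alone, so these counts leave it out. Vim, a further intermediate filament, differed by -1.10 ± 0.35. Oligodendrocyte markers had 5 of 6 lower (median -0.15, sums 15246.4 to 21818 and 14961.1 to 26795.2), and choroid plexus markers 3 of 4 lower (median -0.08, sums 905.1 to 1066.4 and 966.9 to 1142.1) but 2 of 4 after quantile normalization or median centring. In these 2 lists the smallest p on each side belonged to Mag (0.05 ± 0.25), Mog (-0.29 ± 0.27), Ttr (0.21 ± 0.44) and Enpp2 (-0.18 ± 0.29). Genes listed as markers of other brain regions had 9 of 10 lower (median -0.26, sums 916.8 to 1596.5 and 1067.3 to 2151.7). Slc6a4, the serotonin transporter, was among them at -0.82 ± 0.31. Oxt is also 1 of those 9, but it was tested only through its SLA pools, so its direction was fixed by the filter on low values. SLA pool 1 was the highest of the 6 pools for 7 of the 10, all among the lower ones, and the lowest for 0. Of 11 microglia and immune markers, 9 had a probe set and 7 were tested, all 7 lower (median -0.52). Csf1r and Itgam were too dim to test and had higher means in SHA, by 1.09 and 0.09. The sums over the 9 were 966 to 1068.2 in SHA and 1208.2 to 1863.4 in SLA and did not overlap. Cd74 (-2.67 ± 0.76) and C1qb (-0.61 ± 0.26) had an unadjusted p under 0.05 in limma, as did Vim and Slc6a4 above. Of all tested probe sets, 1.13% reached it with SHA lower. Cd74 was under the limit of brightness in SHA and was tested only through its SLA pools, so its direction was fixed by that filter. No marker passed the adjusted threshold, and no probe set of these lists read at the floor in all 6 pools. The part of these cell types in the differences of Cck, Vip and Sstr5 was not tested.

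The 2%-trimmed mean intensity was 250.3 or 250.4 on all arrays, the share of values at or under the floor was 4.95% to 15.9% per array, and arrays correlated with each other at Pearson r of 0.846 to 0.973 over probe sets on the log2 scale. The number of arrays limits the precision: for the 10 probe sets the standard error of a difference was 0.22 to 0.61.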

How the data were processed

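The deposited table holds the authors' linear intensity of 8799 probe sets on 6 arrays; software and scaling are not stated in the sources used. Trimmed means were nearly equal, so the values were not rescaled. The 59 control probe sets were removed, values under 8.9, the 10th percentile, were raised to that floor, log2 was taken, and the dimmest 25% by mean log2 value were dropped. limma 3.58.1 (R 4.3.3) tested the lines, two-sided with an intensity trend, and p was adjusted by Benjamini-Hochberg over 6555 probe sets at a threshold of 0.05. The code was tested on simulated data. Names are the platform annotation's, updated by gene number to RefSeq symbols of GRCr8 (6985 of 7006 matched). Lists used a gene's brightest probe set.

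The genes and lists were chosen with earlier results of these data known. Named genes are the listed genes, their relatives and, per context list, those with an unadjusted p under 0.05, or else the smallest p in each direction; others were named after their values were seen.

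The check of pairing gave correlations of the deviations from line means of 0.44, 0.68 and 0.13 for pools numbered 1, 2 and 3. Each exceeds 0.1, so a blocked alternative treated the pools as paired. Pools of unlike number were not compared in this way, so the correlations do not show that a number stands for something shared. The labels do not say what pools of 1 number have in common, nor that pools came from separate litters, so p-values measure the spread between these pools.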

Additional observations from a re-analysis of the deposited data

How the results depend on the processing

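No probe set, of the set or of all those tested, passed the adjusted threshold under the 16 planned settings that refit the comparison or under centring on interneuron markers, added after the values were known. At an unadjusted p under 0.05 in limma the count over all probe sets was 98, or 1.5% of 6555. It became 354 (5.4%, array weights) and 345 (5.26%, replicate block). With no filter it was 203 of 8740 (2.32%), and with the dimmer 50% dropped 63 of 4370 (1.44%), about the main share. Dropping 1 pool gave 57 to 152 (0.87% to 2.32%), with 62 for SHA pool 1, 151 for SHA pool 2, 152 for SLA pool 2 and 57 for SLA pool 3. For the set it was 0 to 2, with 2 (Cck and Sstr5) under array weights, no filter and the block; Sstr5 was tested only through its SHA pools, except with no filter. The pairing by block changed no call at the adjusted threshold. Of 167 differences under 17 settings, 156 kept their direction and 11 reversed. Array weights gave -0.38 for Sst on M25890_at and 0.048 for Cckbr on M99418_at. Centring on interneuron markers gave -0.0078 for Sst on M25890_at and -0.010 for Sstr2. Dropping 1 pool gave -0.25 to 0.57 for Sst on M25890_at (-0.25 for SHA pool 3, -0.05 for SLA pool 1, -0.09 for SLA pool 2), -0.11 to 0.44 for Sstr2, -0.13 to 0.58 for Npy and -0.45 to 0.11 for Npy1r. The cause of these reversals was not tested. Over the planned settings Cck ran from 0.34 to 0.49, Vip from 0.48 to 1.12 and Sstr5 from 0.96 to 1.73, and the lowest adjusted p was 0.83, with the block. Dropping the dimmer 50% left no value for Sstr5, Vip and Cckbr on M99418_at.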
